A study of Mus musculus with 2 samples.

Results

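Chromatin accessibility was described at 8 genes whose products fill the granules or the cytosol of neutrophils: Mpo, Elane, Prtn3 and Ctsg of the azurophil granule, S100a8 and S100a9 of the cytosol, and Ltf and Camp of the specific granule. They form a list of names set by function, drawn up with earlier results of these data known, and they are 8 of the 21911 protein-coding genes whose promoters were counted. Single-cell ATAC-seq, in which a transposase cuts open DNA in single nuclei, had been run on hematopoietic stem cells (HSCs) that were isolated from marrow of female C57BL/6 mice. The young HSCs (1 library) came from animals of 10 weeks and the aged HSCs (1 library) from animals of 20 months, both with no treatment or engineered allele named in the labels. Both were sorted as cells positive for Sca-1, c-kit and CD150 that lacked IL-7 receptor, CD34, CD48, Flt3 and lineage (Lin) antigens, and the cocktail of lineage antibodies held Gr-1, which removes neutrophils. The question put to these genes was whether their DNA was more or less open in aged HSCs, which are known for myeloid-biased output.

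Granule proteins are made in waves as a granulocyte matures. The azurophil (primary) granule is filled first, in myeloblasts and promyelocytes, with myeloperoxidase and serine proteases, and the specific (secondary) granule follows in myelocytes. C/EBP factors, PU.1, RUNX1 and MYB are the textbook activators of these genes, and HSCs themselves are not cells in which granules form.

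The barcodes called as cells with 3000 to 20000 in-peak fragments in the authors' table came to 4887 young and 3405 aged cells, with medians of 9890 and 11020 unique fragments per cell. These cells held 33993749 and 25591622 fragments in peaks called here on both libraries, and levels below are fragments per 1e6 of these (FPM). The aged library had a lower share of fragments shorter than a nucleosome (55.0% against 59.8%), a lower median TSS enrichment (5.30 against 5.78) and more putative doublets (14.3% against 8.74% of cells), and 26 cell barcodes occurred in both libraries. The part of these differences in the values below was not tested. Promoters of 6 HSC marker genes summed to 124 FPM in young and 128 FPM in aged HSCs, while the 5 neutrophil markers Ngp, Retnlg, Lcn2, Mmp8 and Cxcr2 summed to 7.83 and 6.17 FPM. Of those 5, Cxcr2 alone gave 4.71 and 3.75 FPM, and Retnlg was near 0 with 0.206 and 0.274 FPM. Since each age had a single library and no replicate, the spread between animals is unknown, no p-value is given, and every 95% interval covers counting error only. A difference was called where the aged over young ratio was at least 1.5-fold either way with at least 20 fragments over both libraries.

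The promoters, counted as 1 kb on either side of the annotated 5′ end of the gene, spanned a wide range of levels. In young HSCs the order was Prtn3 (12.4 FPM), Ltf (6.41), Mpo (2.91), Elane (1.62), Camp (0.853), S100a8 (0.588), S100a9 (0.530) and Ctsg (0.324 FPM). In aged HSCs it was Prtn3 (12.7 FPM), Ltf (6.10), Elane (2.77), Mpo (1.84), Camp (0.977), S100a8 (0.703), S100a9 (0.274) and Ctsg (0.156 FPM). All 8 lay below the median promoter of 14.5 FPM in young and 15.4 FPM in aged HSCs, at percentiles 19.2 to 47.5 in young and 11.0 to 46.7 in aged HSCs. Promoters of the 1134 olfactory receptor genes, which blood cells do not use, gave a background median of 0.118 and 0.117 FPM, with 95% of them at or under 0.530 and 0.561 FPM. Ctsg and S100a9 did not exceed that upper level in either library, and S100a8 and Camp were somewhat above it, whereas Mpo, Elane, Prtn3 and Ltf were 13.8 to 106 times the olfactory median in young HSCs. Counting intervals of neighbours in the order overlapped in both libraries for Camp and S100a8, S100a8 and S100a9, and S100a9 and Ctsg, and also for Elane and Camp in young and for Mpo and Camp in aged HSCs, so that these places in the order are not resolved. The first place of Prtn3, and its 106 times the olfactory median, depended on its annotated 5′ end, 158 bp from the start of Plppr3. At the RefSeq start Prtn3 gave 6.38 and 6.96 FPM in young and aged HSCs, beside 6.41 and 6.10 at Ltf, with overlapping intervals. Mpo stood above Elane in young HSCs (2.37 to 3.55 against 1.22 to 2.11 FPM), while in aged HSCs Elane was the higher and their intervals overlapped (2.17 to 3.50 against 1.35 to 2.44 FPM).

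**Figure D1:**
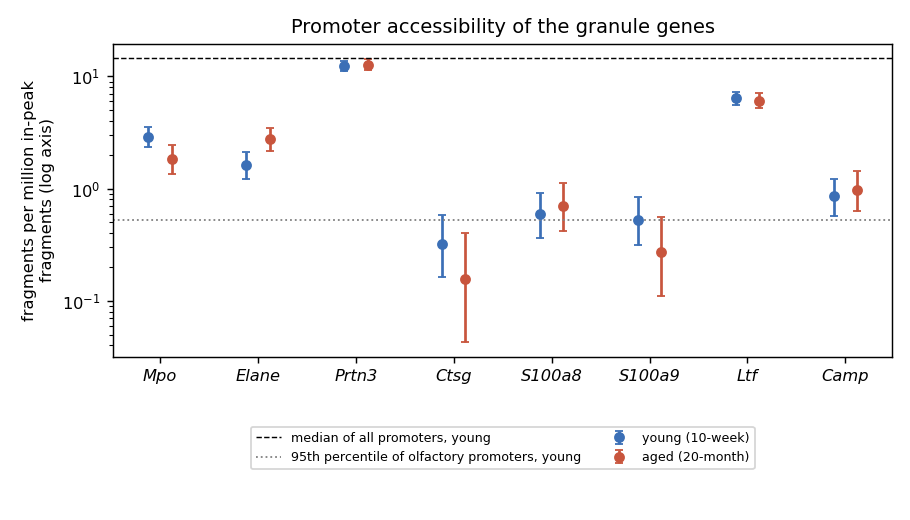
Accessibility in FPM within 1 kb of the 5′ end of each granule gene, on a log axis, in the young (blue) and the aged (red) library, 1 library each. Bars are exact Poisson 95% intervals of the fragment count, the dashed line is the median of all protein-coding promoters in young HSCs (14.5) and the dotted line the level under which 95% of olfactory receptor promoters lay in young HSCs (0.530), at or under which Ctsg and S100a9 lay in both libraries.

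Mpo encodes myeloperoxidase, the heme enzyme of the azurophil granule that makes hypochlorous acid. Its promoter held 99 young and 47 aged fragments, which is 2.91 against 1.84 FPM and a log2 ratio of -0.65 (95% interval -1.20 to -0.15). The gene body of 10833 bp on chromosome 11 (mm10, chr11:87793581-87804413, plus strand) held 337 and 166 fragments, or 0.915 and 0.599 FPM per kb, a log2 ratio of -0.61 (-0.89 to -0.34). The aged library was lower at both, and both intervals lay below 0, but the 2 windows share the 1 kb past the 5′ end. The call at the promoter did not hold with 500 bp on either side (-0.57) or with cells thinned to one depth of 3000 in-peak fragments (-0.32, from 32 and 17 fragments), and the gene body went just under the threshold with the ratios centred on the median promoter (-0.56) or with putative doublets removed (-0.56). At one depth the gene body gave -0.88 (-1.39 to -0.43).

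The lower accessibility was uneven along the Mpo locus. From the 5′ end to 2.5 kb into the gene 182 young and 71 aged fragments were counted, a log2 ratio of -0.94 (-1.37 to -0.55), and the rest of the gene gave 157 and 99 fragments, a log2 ratio of -0.25 (-0.63 to 0.12). These 2 intervals overlapped. The edges of the stretches were not set in advance, and the first stretch ends just past bins called lower, so its ratio is not separate from those bins. The 20 kb past the gene end, which hold most of Lpo, the gene of the related lactoperoxidase, gave 858 and 450 fragments (-0.52, -0.69 to -0.36), and the 30 kb beyond gave 1088 and 859 (0.07, -0.06 to 0.20). Upstream, the stretch from 10 to 1 kb before Mpo gave 143 and 88 fragments (-0.28, -0.69 to 0.10) and the 40 kb before that 6896 and 4601 (-0.17, -0.23 to -0.12). Of the 24 peaks within 50 kb of the gene, 6 were at least 1.5-fold lower and 2 higher in aged HSCs. A peak over an exon of Mpo at +1.7 kb (chr11:87795086-87795445) held 75 and 24 fragments, a log2 ratio of -1.19 (-1.96 to -0.55), and its neighbour at +1.2 kb (chr11:87794718-87794911) held 40 and 11, a log2 ratio of -1.36 (-2.56 to -0.46). The peak at the 5′ end itself (chr11:87793481-87793721) held 46 and 17 fragments (-0.98, -1.92 to -0.20). An upstream peak 3267 bp before Mpo (chr11:87790183-87790445) held 76 and 31 fragments (-0.86, -1.54 to -0.26). A peak in an intron of Lpo, 18137 bp from the Mpo 5′ end (chr11:87811456-87811980), was the strongest of the lower peaks, with 321 young (9.44 FPM) and 136 aged fragments (5.31 FPM), a log2 ratio of -0.82 (-1.13 to -0.54). The peak with the most fragments at the locus lay 44069 bp upstream (chr11:87749146-87749877) and was near equal, with 51.7 and 48.8 FPM (-0.08, -0.19 to 0.02). In the other direction, a peak 3563 bp from the start of Mks1 (chr11:87849512-87849792) held 63 and 102 fragments (1.10, 0.64 to 1.58). The promoter of Lpo itself, with 13 and 11 fragments, lay within the olfactory range.

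**Figure D2:**
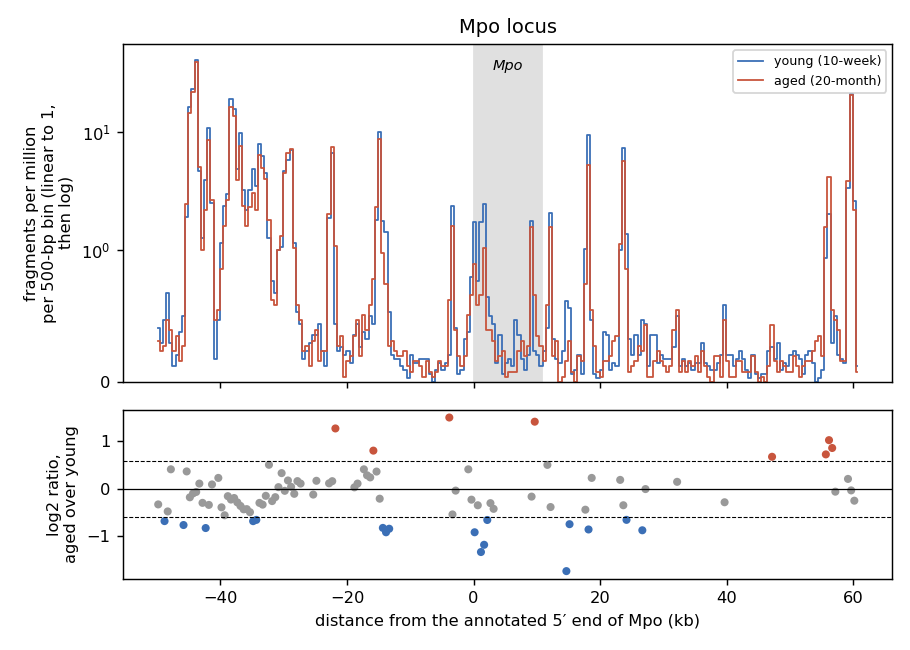
Accessibility in bins of 500 bp from 50 kb before to 50 kb after Mpo, by distance from its annotated 5′ end in kb, for the young (blue) and aged (red) library; the vertical scale is FPM, linear up to 1 and logarithmic above, with the gene shaded. The lower panel gives the log2 ratio of the 93 bins with at least 20 fragments, with dashed lines at 1.5-fold and coloured points past it. Of the 93 bins 17 were lower and 8 higher in aged HSCs. Over the genome 28.5% of bins were called, 10.1% lower and 18.5% higher.

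The sequences below are those of the Mpo promoter and of some, not all, of the peaks at the locus with lower counts in aged HSCs, from the plus strand of GRCm38 (the build mm10), so that the letters under the fragments can be seen. Capitals mark matches to 5 short motifs searched on both strands: TTGCNNAA for C/EBP, GAGGAA for PU.1, TGTGGT for RUNX, TAACNG for MYB and TGANTCA for AP-1. The promoter is the 250 bases before the RefSeq start (chr11:87793534-87793783), and peaks over 300 bp are shown by their middle 300 bases (chr11:87795116-87795415 in Mpo and chr11:87811568-87811867 in Lpo). The Mpo promoter held 2 PU.1 matches and 1 MYB match, the upstream peak a C/EBP and a MYB match, the exon peak a PU.1 match and the Lpo intron peak a PU.1, a MYB and a RUNX match. Not shown are the lower peak at chr11:87794718-87794911, which held no match to any of the 5 motifs, and that at chr11:87779524-87779662, which held PU.1, C/EBP and AP-1 matches. The lower peak at the 5′ end (chr11:87793481-87793721) overlaps the promoter shown.
Mpo promoter: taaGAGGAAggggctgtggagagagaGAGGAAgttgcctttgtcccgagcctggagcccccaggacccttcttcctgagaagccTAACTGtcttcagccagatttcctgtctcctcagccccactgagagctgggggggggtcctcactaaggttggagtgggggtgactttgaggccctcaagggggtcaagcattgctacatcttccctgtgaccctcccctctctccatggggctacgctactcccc
Mpo upstream peak: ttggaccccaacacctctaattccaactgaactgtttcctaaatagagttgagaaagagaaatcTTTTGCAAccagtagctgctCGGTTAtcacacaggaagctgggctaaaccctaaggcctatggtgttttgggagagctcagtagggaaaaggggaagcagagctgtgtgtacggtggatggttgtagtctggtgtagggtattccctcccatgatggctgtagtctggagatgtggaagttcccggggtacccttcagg
Mpo exon peak: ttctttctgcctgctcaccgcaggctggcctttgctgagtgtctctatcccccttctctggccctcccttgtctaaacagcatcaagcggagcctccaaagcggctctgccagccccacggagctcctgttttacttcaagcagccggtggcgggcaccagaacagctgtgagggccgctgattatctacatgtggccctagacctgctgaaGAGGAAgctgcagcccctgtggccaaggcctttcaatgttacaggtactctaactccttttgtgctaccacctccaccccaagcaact
Lpo intron peak: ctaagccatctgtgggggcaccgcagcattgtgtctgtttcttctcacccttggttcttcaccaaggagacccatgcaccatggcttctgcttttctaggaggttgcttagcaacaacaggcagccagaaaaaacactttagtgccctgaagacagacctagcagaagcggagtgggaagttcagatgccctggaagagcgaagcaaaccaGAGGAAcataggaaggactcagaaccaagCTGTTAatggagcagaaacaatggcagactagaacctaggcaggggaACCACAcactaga

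Prtn3 (proteinase 3) and Elane (neutrophil elastase) encode closely related serine proteases of the azurophil granule and lie next to each other on the plus strand of chromosome 10. The Prtn3 gene (chr10:79874476-79883174) was the most open member: its body held 2400 young and 1903 aged fragments, 8.12 and 8.55 FPM per kb, higher than 96.0% and 96.6% of all gene bodies. The log2 ratio of the body was 0.07 (-0.01 to 0.16), an interval that included 0. It lay above 0 with ratios centred on the median promoter (0.12, 0.04 to 0.21), as did the ratio of shares of cells with a fragment in the body above 1 (1.11, 1.04 to 1.19). At the annotated 5′ end 422 and 326 fragments were counted (0.04, -0.18 to 0.25). That 5′ end, however, is of a processed transcript and lies 158 bp from the start of Plppr3 on the other strand, whereas the RefSeq start is 5191 bp further in, and its window held 217 and 178 fragments, 6.38 and 6.96 FPM, with a log2 ratio of 0.13 (-0.17 to 0.42). Either way Prtn3 showed no difference past 1.5-fold. The body was counted from the annotated 5′ end only, so its level, percentile and ratio include the 5191 bp before the RefSeq start. That part holds a peak with 1059 and 742 fragments, and the body from the RefSeq start was not counted.

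The openness of Prtn3 was concentrated in a few elements. Its strongest (chr10:79877723-79878329), between the annotated 5′ end and the RefSeq start, held 1059 and 742 fragments, 31.2 and 29.0 FPM, more than 95.4% of all peaks in young HSCs, with a log2 ratio of -0.10 (-0.24 to 0.03). Of the 39 peaks within 50 kb of Prtn3 and Elane 1 passed 1.5-fold (2.56%, beside 26.2% of peaks of the genome), a peak in an intron of Prtn3 (chr10:79880830-79881005) with 141 young and 168 aged fragments, 4.15 and 6.56 FPM, a log2 ratio of 0.66 (0.33 to 0.996). A further intron peak (chr10:79882095-79882290) gave 0.15 (-0.15 to 0.44), and 2 peaks between Prtn3 and Elane (chr10:79883726-79884135 and chr10:79884585-79884756) gave 0.22 (-0.02 to 0.47) and 0.12 (-0.30 to 0.54). A peak in an intron of Arid3a (chr10:79934433-79934652), downstream of both genes, held 86 and 84 fragments (0.38, -0.08 to 0.83). The peak with the most fragments at the locus was that of the Ptbp1 promoter (chr10:79854048-79855087), with 90.8 and 82.4 FPM.

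Elane had the opposite ratio to Mpo. Its promoter held 55 young and 71 aged fragments, although the aged library was the smaller, which is 1.62 against 2.77 FPM and a log2 ratio of 0.77 (0.25 to 1.31). The body of 1969 bp (chr10:79886247-79888215) held 43 and 54 fragments, 0.642 and 1.07 FPM per kb, a log2 ratio of 0.73 (0.13 to 1.35). The promoter window ends at chr10:79887247, so fragments in the first part of the body were counted in both. At one depth the promoter gave 19 and 32 fragments (1.28, 0.44 to 2.21) and the body 14 and 28 (1.503, 0.58 to 2.59). Accessibility at Elane was thinly spread, with no peak at its 5′ end, and the 2 bins of 500 bp that passed 1.5-fold there, 1 over the 5′ end and the next downstream, held 23 against 36 and 11 against 18 fragments. The call did not hold in wider windows, with log2 ratios of 0.45 at 2 kb on either side and 0.14 at 5 kb, where neighbouring peaks enter the count. At 5 kb these include the peaks between Prtn3 and Elane and a downstream peak (chr10:79889252-79889773) with 529 and 370 fragments (-0.10, -0.30 to 0.09). The call at the gene body ended likewise with 2 kb upstream added (0.45, 0.20 to 0.70, from 267 and 275 fragments), and with fragments shorter than a nucleosome the interval of the body reached across 0 (-0.34 to 1.65).

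**Figure D3:**
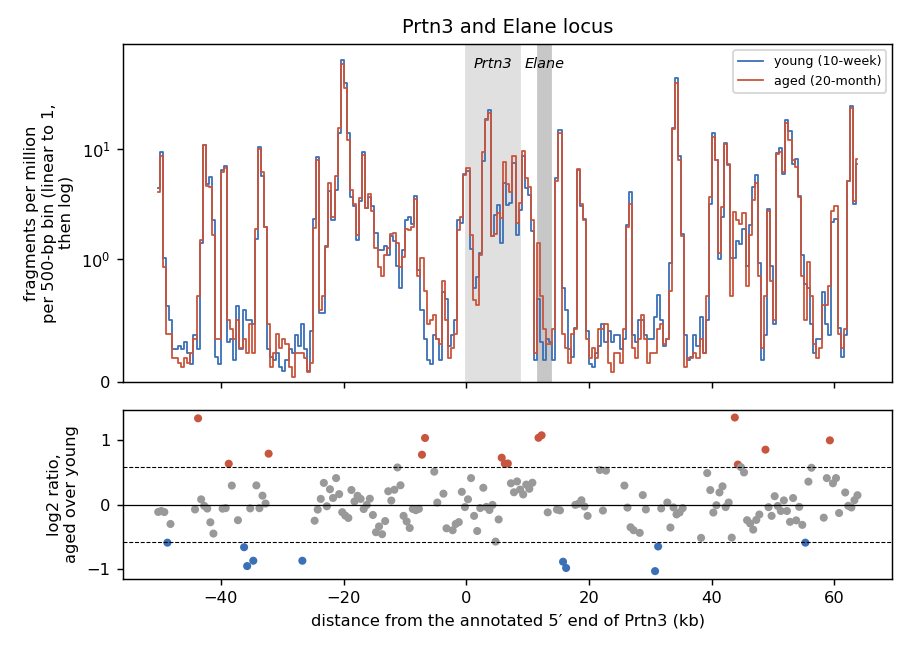
Accessibility in bins of 500 bp around Prtn3 (light shading) and Elane (darker shading), by distance from the annotated 5′ end of Prtn3 in kb, for the young (blue) and aged (red) library; the vertical scale is FPM, linear up to 1 and logarithmic above. The lower panel gives log2 ratios of the 172 bins with at least 20 fragments. Of the 172 bins 14 were at least 1.5-fold higher in aged HSCs, among them 3 within Prtn3 and 2 at Elane, and 10 were lower. Over the genome 18.5% of bins were called higher and 10.1% lower.

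Shown here, on the plus strand, are the 250 bases before the RefSeq starts of Elane (chr10:79886062-79886311) and Prtn3 (chr10:79879417-79879666), the middle of the strongest Prtn3 element (chr10:79877876-79878175) and the Prtn3 intron peak that passed 1.5-fold (chr10:79880830-79881005), with the same motifs in capitals. Both promoters held a PU.1 match, 85 bases before the start in Elane and 95 in Prtn3, and Elane also a MYB match, the strongest element held 3 RUNX matches and no other, and the intron peak held 2 PU.1 matches.
Elane promoter: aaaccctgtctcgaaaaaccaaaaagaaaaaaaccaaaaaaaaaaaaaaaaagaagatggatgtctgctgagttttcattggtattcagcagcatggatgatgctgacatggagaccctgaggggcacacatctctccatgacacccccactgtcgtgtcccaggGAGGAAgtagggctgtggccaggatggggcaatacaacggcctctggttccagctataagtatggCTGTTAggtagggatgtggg
Prtn3 promoter: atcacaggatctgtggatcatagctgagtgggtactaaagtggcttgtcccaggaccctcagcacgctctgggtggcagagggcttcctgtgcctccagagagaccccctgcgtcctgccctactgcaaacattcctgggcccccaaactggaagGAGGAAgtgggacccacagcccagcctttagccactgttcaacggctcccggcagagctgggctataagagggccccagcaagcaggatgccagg
Prtn3 strongest element: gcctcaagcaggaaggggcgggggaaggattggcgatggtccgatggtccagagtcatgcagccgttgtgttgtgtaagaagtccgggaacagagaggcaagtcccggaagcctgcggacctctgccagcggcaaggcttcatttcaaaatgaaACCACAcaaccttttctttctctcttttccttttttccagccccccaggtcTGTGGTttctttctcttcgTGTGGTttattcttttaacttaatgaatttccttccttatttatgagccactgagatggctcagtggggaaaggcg
Prtn3 intron peak: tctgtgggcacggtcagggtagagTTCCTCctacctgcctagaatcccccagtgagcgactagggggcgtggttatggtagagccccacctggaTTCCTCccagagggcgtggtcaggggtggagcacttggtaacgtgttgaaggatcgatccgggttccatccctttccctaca

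Ctsg encodes cathepsin G, another serine protease of the azurophil granule, and lies on the minus strand of chromosome 14 (chr14:56099881-56102574) among mast cell protease and granzyme genes. Its promoter held 11 young and 4 aged fragments and its body 12 and 5, under the minimum of 20, so no ratio is called. The whole locus with its 50-kb flanks held 350 and 282 fragments, 0.1003 and 0.107 FPM per kb, and only 3 of its 207 bins reached 20 fragments. Its strongest peak, 3448 bp from its start and just past the gene end (chr14:56099004-56099248), held 51 and 30 fragments (-0.34, -1.06 to 0.32). At this depth the Ctsg promoter was not told from silent promoters in either library.

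S100a8 and S100a9 encode the subunits of calprotectin, the calcium-binding pair that makes up much of the neutrophil cytosol, and lie on chromosome 3 (chr3:90668978-90670035, plus strand, and chr3:90692632-90695721, minus strand). The S100a8 promoter held 20 and 18 fragments, 0.588 and 0.703 FPM, a log2 ratio of 0.27 (-0.75 to 1.25). The S100a9 promoter held 18 and 7 fragments, 0.530 and 0.274 FPM, a log2 ratio of -0.84 (-2.46 to 0.37) that passed 1.5-fold with an interval across 0. The S100a9 body held 34 and 13 fragments (-0.91, -2.02 to -0.02) and the S100a8 body 16 and 8 (-0.51, -2.02 to 0.72). For S100a8 the direction was not stable: the body gave 0.31 (-0.34 to 0.955) with 2 kb upstream added, from 44 and 41 fragments, and the promoter -0.31 with short fragments, from 6 and 3. Over the alternatives the S100a8 promoter ratio ran from -0.31 to 0.62. The S100a8 body passed 1.5-fold, lower, with putative doublets removed (-0.73, -2.50 to 0.57, from 16 and 6). It also did so with cells that had fragments at 3 or more of the 8 gene bodies removed (-0.69, from 14 and 6). The interval of the S100a9 body reached across 0 at one depth (upper bound 0.39), with putative doublets removed (0.32), with 2 kb upstream added (0.12), with ratios centred on the median promoter (0.03) and with cells that had fragments at 3 or more of the 8 gene bodies removed (0.13), the last chosen after the data were seen. The call at the S100a9 promoter ended at one depth (-0.03, from 5 and 3 fragments), with 500 bp on either side (-0.44, from 8 and 4) and with 5 kb on either side (-0.57, from 80 and 40), and with short fragments it fell under the minimum of 20. None of the 13 peaks of the locus lay at either start. The 1 peak past 1.5-fold (7.69%, beside 26.2% of peaks of the genome) was lower, chr3:90621613-90621871 with 45 and 22 fragments (-0.59, -1.43 to 0.14). The strongest peak of the locus (chr3:90709954-90710425), 14469 bp from S100a9, gave 11.7 and 10.1 FPM (-0.22, -0.45 to 0.01), and a peak 4570 bp before S100a8 (chr3:90664287-90664528) gave 57 and 52 fragments (0.28, -0.29 to 0.85).

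Ltf encodes lactoferrin, the iron-binding protein of the specific granule, and Camp the cathelicidin precursor, an antimicrobial peptide of the same granule. The Ltf promoter (gene at chr9:111019271-111042767, plus strand) held 218 and 156 fragments, 6.41 and 6.10 FPM, a log2 ratio of -0.07 (-0.38 to 0.23), and its body 243 and 161 (-0.18, -0.48 to 0.11). Ltf was thus the only member other than Prtn3 with several FPM at its start, and the intervals of both its ratios included 0, while that of the body with 2 kb upstream added lay below 0 (-0.24, -0.46 to -0.02). Camp (chr9:109847379-109849617, minus strand) held 29 and 25 fragments at its promoter (0.20, -0.64 to 1.02, but -0.21 with 5 kb on either side) and 29 and 27 in its body (0.31, -0.51 to 1.11). Both had peaks past 1.5-fold in their flanks: 3 higher and 3 lower of 23 (26.1%) around Ltf, and 2 lower of 10 (20.0%) around Camp, beside 26.2% of peaks of the genome. Of these, a peak 61675 bp downstream of the Ltf start, beyond Ccrl2 (chr9:111080765-111081127), had the lowest ratio of the peaks with at least 100 fragments, with 84 and 22 fragments (-1.48, -2.27 to -0.83). A peak 36546 bp before Ltf, in a UTR of Lrrc2 (chr9:110982527-110982922), held 68 and 34 fragments (-0.57, -1.23 to 0.02). A pair lay near the Ccrl2 promoter: chr9:111057949-111058143 held 2.71 and 3.95 FPM (0.54, 0.12 to 0.97) and chr9:111059000-111059231 held 4.44 and 3.01 FPM (-0.55, -0.98 to -0.16), and neither passed 1.5-fold. The strongest peaks of the 2 loci, at the Ccrl2 (28.8 FPM in aged HSCs) and Cdc25a (50.9 FPM) promoters, were near equal at -0.08 and -0.06. The middle 300 bases of the peak of lowest ratio (chr9:111080796-111081095, plus strand) are shown, which held several motif matches, 3 of PU.1 and 2 of MYB.
Ltf downstream peak: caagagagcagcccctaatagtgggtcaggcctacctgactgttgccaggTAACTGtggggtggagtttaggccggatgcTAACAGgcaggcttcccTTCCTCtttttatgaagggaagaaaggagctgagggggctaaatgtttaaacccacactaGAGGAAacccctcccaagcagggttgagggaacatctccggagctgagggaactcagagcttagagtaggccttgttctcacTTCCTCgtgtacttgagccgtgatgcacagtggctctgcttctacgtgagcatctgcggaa

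Set against all genes, the 8 members showed no common direction. Of the 7 promoters with at least 20 fragments, 1 (Elane) was at least 1.5-fold higher and 2 (Mpo and S100a9) were lower in aged HSCs, beside 8.25% of 17687 protein-coding promoters called either way, 5.47% higher and 2.78% lower. Over protein-coding promoters with 25 to 748 fragments, the range of the 7, the share called was 21.5%. The median log2 ratio of the 7 was 0.04, beside -0.05 over all promoters tested. Of the 7 gene bodies with at least 20 fragments, Elane was higher and Mpo and S100a9 were lower, with a median of -0.18, beside 6.14% of 19569 gene bodies called, 4.93% higher and 1.22% lower, and 6.66% of those with 24 to 4303 fragments. That last range holds 15746 of the gene bodies. Prtn3 sets the upper end of both fragment ranges, so neither share is matched to the depth of the called members. Among all tested promoters the ratio of Mpo was at percentile 2.21 and that of Elane at 96.5. Intervals that excluded 0 at promoter and body alike were found for Mpo and Elane only. Both windows hold the 1 kb past the 5′ end, so fragments there were counted in both and the 2 results are not separate.

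**Figure D4:**
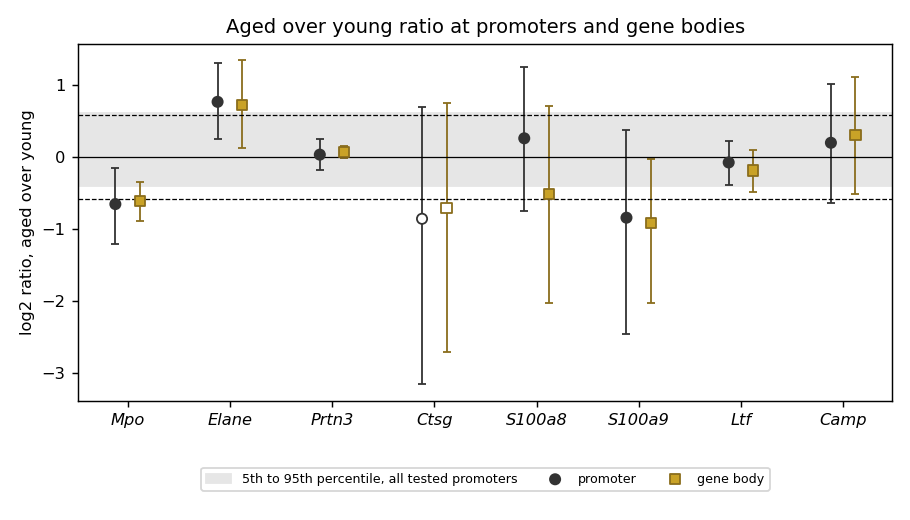
Log2 ratio of aged over young accessibility at the promoter (circles) and gene body (squares) of each granule gene, with 95% counting intervals; open symbols (Ctsg) have fewer than 20 fragments over both libraries. Dashed lines mark 1.5-fold and the grey band the 5th to 95th percentile of all tested promoters (-0.40 to 0.62); Mpo lay below 0 and Elane above 0 at both.

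In the flanks, 410 of 1367 bins of 500 bp within 50 kb of the genes held at least 20 fragments, of which 40 (9.76%) were at least 1.5-fold higher and 43 (10.5%) lower in aged HSCs. The balance of the directions depended on the choice, with 26 higher and 51 lower in bins of 1000 bp and 22 higher and 37 lower at one depth. Over the genome 28.5% of 634090 such bins were called, 18.5% higher and 10.1% lower. Of the 111 peaks, 6 were higher and 12 lower, 16.2% in all, beside 26.2% of 153268 peaks of the genome, 16.4% higher and 9.79% lower. The shares of higher bins and peaks around the granule genes were below those of the genome, while the shares of lower ones were near them, and of the 12 lower peaks 6 lay at Mpo, as did 17 of the 43 lower bins. These shares were not matched for depth, on which the share called depends, and 81 of the 111 peaks held at least 100 fragments. They are therefore no measure of the granule loci against loci of like depth. The sums over the loci with flanks ranged in log2 ratio from -0.19 at Mpo (-0.23 to -0.14) to 0.10 at Ctsg (-0.13 to 0.33).

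Cells with a promoter fragment mostly held just 1, with at most 3 at any granule gene promoter. In young and aged HSCs, 1.92% and 1.35% of cells had a fragment at the Mpo promoter, 1.13% and 2.06% at Elane, 7.94% and 8.81% at Prtn3 (4.17% and 5.02% at its RefSeq start), 4.24% and 4.35% at Ltf, 0.552% and 0.705% at Camp, 0.409% and 0.529% at S100a8, 0.348% and 0.206% at S100a9, and 0.225% and 0.117% at Ctsg. The aged over young ratio of these shares was 0.702 for Mpo (0.482 to 1.01), which did not pass 1.5-fold, although it did with putative doublets removed (0.633, 0.417 to 0.943), 1.83 for Elane (1.26 to 2.65), and 1.03 for Ltf (0.825 to 1.27), whose sum was slightly lower in aged HSCs. The median olfactory promoter gave 0.0819% and 0.0881%, and the median of all promoters 9.35% and 10.6%, at median depths of 6803 and 7353 in-peak fragments a cell. With each cell thinned to 3000 in-peak fragments (4774 young and 3256 aged cells were deep enough), the Mpo promoter was seen in 0.649% (0.442 to 0.920) and 0.522% (0.304 to 0.835) of cells and the Elane promoter in 0.398% (0.240 to 0.621) and 0.983% (0.673 to 1.38). The 2 intervals overlapped for Mpo and did not for Elane. Over gene bodies at that depth, Mpo was seen in 2.87% (2.41 to 3.38) of young and 1.54% (1.14 to 2.02) of aged cells and Elane in 0.293% (0.160 to 0.492) and 0.860% (0.572 to 1.24), with no overlap for either. Prtn3, counted from its annotated 5′ end, was seen in 18.3% (17.3 to 19.5) and 20.3% (18.9 to 21.7). A lower share of cells with an open site and fewer cuts at the site in each cell cannot be told apart from such counts.

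**Figure D5:**
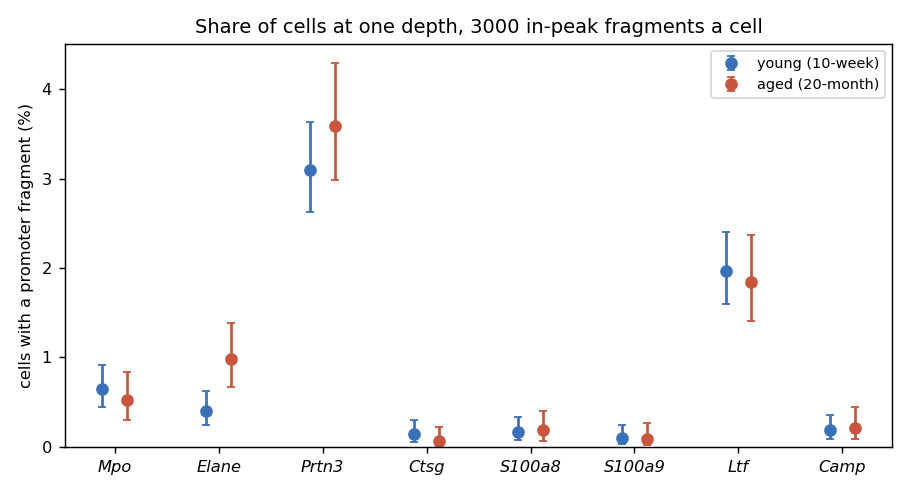
Share of cells, in percent, with at least 1 fragment at the promoter of each granule gene after every cell was thinned to 3000 in-peak fragments, in the young (blue, 4774 cells) and aged (red, 3256 cells) library. Bars are exact binomial 95% intervals, which do not overlap for Elane and overlap for the other 7.

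Few cells had fragments at several of the genes. No promoter fragment of any member was found in 84.5% of young and 83.4% of aged cells, and 5 young and 2 aged cells had fragments at the promoters of 3 members, with none at more. Summed over the 8 promoters at one depth, the variance of fragments per cell was 1.07 times the mean in young and 1.06 times in aged HSCs, where 1 is what independent counts would give. Over gene bodies, 15 young and 9 aged cells had fragments at 3 or more members, mostly Prtn3 (14 and 8 of these cells), Mpo (14 and 5) and Ltf (9 and 8), which are the longest or most open bodies. These 15 and 9 cells held 4 and 1 fragments at the promoters of the 5 neutrophil markers. No rate per in-peak fragment was computed from these few counts, so whether such cells held more or less of that signal than other cells was not tested. A single young cell had fragments at 5 gene bodies (Mpo, Prtn3, S100a8, S100a9 and Camp) with just 3047 in-peak fragments. Without such cells the Mpo body ratio was -0.59 and the Elane body ratio 0.75.

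Other genes of the granule program were listed by role, and their counts below stand beside the 8.25% of all tested promoters that were called. In the fragment range of the granule gene promoters that share was 21.5%, and the promoters named as called below had few fragments. None of 8 tested promoters of azurophil and protease-processing genes passed 1.5-fold, with a median log2 ratio of -0.09. The range was from -0.48 at Srgn, the serglycin core that binds granule proteases, to 0.25 at Cst7. Srgn held just 25 and 13 fragments (-1.62 to 0.49). Bpi alone of this list had an interval that excluded 0, with 589 and 343 fragments (-0.37, -0.57 to -0.18). Of 10 further specific-granule genes 7 were tested and none passed, with a median of -0.28, from -0.52 at Lcn2 (37 and 19 fragments, -1.43 to 0.28) to -0.12 at Ceacam1. Among them only Cyba, with 1147 and 710 fragments (-0.28, -0.42 to -0.15), had an interval that excluded 0. Of 9 genes of the gelatinase granule, secretory vesicles and surface 8 were tested and Cd177, a neutrophil surface protein that binds proteinase 3, passed, at 34 young and 15 aged fragments (-0.72, -1.75 to 0.14), while Csf3r, the G-CSF receptor, was the highest at 0.22 (0.02 to 0.42). None of 10 regulators passed, Cebpa, Cebpb, Cebpd, Cebpe, Spi1 (PU.1), Gfi1, Runx1, Myb, Irf8 and Klf4, whose ratios lay between -0.20 at Cebpe and 0.19 at Cebpd. The median level of the 10 regulator promoters was 33.0 FPM in young and 34.3 FPM in aged HSCs, and the lowest, that of Cebpe with 136 and 89 fragments, lay below those of Prtn3 and Ltf. Among markers of other cell types, 2 of 4 T-cell promoters were called lower. They were Cd3g with 29 and 9 fragments (-1.18, -2.54 to -0.16) and Cd8a with 15 and 7 (-0.59, -2.23 to 0.69), and the 4 summed to 7.97 FPM in young and 6.13 FPM in aged HSCs. Of 5 monocyte and macrophage promoters Ly6c2 was called lower with 38 and 17 fragments (-0.71, -1.67 to 0.11), while the sum of the 5 was higher in aged HSCs (20.1 and 22.5 FPM). Of 5 eosinophil, basophil and mast cell promoters 4 were tested and Mcpt8 (1.15) was called higher, while Epx gave -0.56 (-1.40 to 0.18), and the 5 summed to 12.3 and 14.9 FPM. No erythroid, megakaryocyte, HSC or neutrophil marker passed 1.5-fold. Their part in the values of the granule genes was not tested.

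Of 22 protein-coding neighbours with a start within 50 kb, 17 were tested and only Mcpt8, 17301 bp from Ctsg, passed 1.5-fold, with 11 young and 19 aged fragments (1.15, 0.05 to 2.42). This stands beside 8.25% of all tested promoters. The median over the 17 was -0.10. Beside Mpo, Tspoap1 gave -0.27 (-0.46 to -0.07), an interval that overlapped that of the Mpo promoter, and Mks1 gave -0.04 (-0.20 to 0.12). Beside Prtn3 and Elane, Ptbp1 gave -0.12 (-0.20 to -0.05) and Cfd, the adipsin gene 4606 bp from the start of Elane, -0.43 (-1.12 to 0.20). Differences between neighbours and granule genes were not tested. The promoters nearest to Mpo in level over the 2 libraries were Gm47969, with the same 2.91 and 1.84 FPM, Angpt4 with 2.82 and 1.84 FPM, and Lta with 2.91 and 1.91 FPM, and 8 promoters lay within 0.1 on the log2 scale.

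The letters of the 5 motifs were counted in all promoters and peaks as well as in those of the granule genes. In the 250 bases before the start, PU.1 letters were in 6 of the 8 member promoters (23.3% of 32851 RefSeq promoters hold them), C/EBP letters in 2, those of S100a9 and Ltf (9.56%), RUNX in 2, those of Ctsg and S100a9 (14.0%), MYB in 2, those of Mpo and Elane (19.8%), and AP-1 in 0 (6.75%). All 8 members matched a RefSeq promoter. In windows of 300 bp centred on each of the 111 peaks, an equal length that reaches past the ends of narrower peaks, PU.1 letters were in 37.8% (37.99% of 154313 peaks), C/EBP in 11.7% (12.2%), RUNX in 26.1% (27.9%), MYB in 16.2% (27.6%) and AP-1 in 10.8% (12.2%). Of the windows at the 12 lower peaks 8 held PU.1, 5 RUNX, 5 MYB, 3 C/EBP and 2 AP-1 letters, not all of them inside the peak itself, and of those at the 6 higher peaks 3, 0, 1, 2 and 1. Such matches are a description of letters only.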

How the data were processed

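Single-cell ATAC-seq libraries of young and aged HSCs, 1 each, were compared. Per the labels and methods, the authors aligned reads to mm10 with Cell Ranger ATAC and used Signac, as named in the submitters' processing notes. They deposited unique fragments per barcode and a table of counts per barcode. Cells were barcodes called as cells with 3000 to 20000 in-peak fragments in that table, and putative doublets were kept. Peaks were called here on the kept cells of each library and merged (154313 peaks), since no deposited peak list was used. A fragment was counted once where at least 1 end lay in a region. Counts were scaled to 1e6 fragments in peaks of each library (FPM), and ratios are log2 of aged over young after adding 1 fragment to each count, with exact binomial 95% intervals, levels have exact Poisson intervals, and shares of cells have exact (Clopper-Pearson) intervals. PCR duplicates had been removed, and the intervals cover counting error only. Gene models were GENCODE M21 on mm10, and promoter sequences came from RefSeq GRCm38.p6. Python 3.11.15 with numpy 2.4.6, pandas 2.3.3, scipy 1.17.1, numba 0.67.0 and matplotlib 3.10.9 was used, and the counting was tested on simulated data. All 8 genes are named. Of peaks, the one with most fragments at each locus and the 5 highest and 5 lowest ratios among those with at least 100 fragments were named by rule, and other peaks, the neighbours other than Mcpt8 and single markers were named after their values were seen. The 8 genes and the lists were chosen with earlier results of these data known. The edges of the stretches along the Mpo locus were not set in advance. Alternatives were scaling, fragment length, cell filters, doublet removal, thinning to one depth, window sizes, minimum counts and the fold. The result of 1 marker gene is not reported here.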

Additional observations from a re-analysis of the deposited data

Results flagged for a closer look

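Barcodes that were not called as cells also held fragments at the granule genes, a signal in data that the comparisons above do not use. In the aged library these barcodes had 59 fragments at the 8 promoters, 1.53 times (95% counting interval 1.15 to 2.001) the level in cells per in-peak fragment, and 258 fragments in the 8 gene bodies, 1.87 times (1.64 to 2.13). In the young library the same ratios were 1.13 (0.812 to 1.52) and 1.05 (0.8799 to 1.24). Per nuclear fragment, in or out of peaks, the aged ratios were 0.667 and 0.816, and 28.8% of the fragments of these aged barcodes lay in peaks, against 66.2% in aged cells. The same measure over all protein-coding genes in the aged library was 1.02 at promoters and 1.95 in gene bodies, the latter within the interval of the granule gene bodies. Per in-peak fragment, olfactory receptor promoters stood at 5.78 times in the aged and 2.38 times in the young library.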

How the results depend on the processing

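No paired analysis was possible because each age has 1 library, and no replicate could be left out. Of ratios recomputed under alternatives, 103 of 104 at promoters, 78 of 80 at gene bodies and 32 of 32 ratios of shares of cells stayed within the counting interval of the reported value, and 36 of 44 counts within 1.5 times; no called ratio changed sign. The exceptions were the Elane promoter at 5 kb on either side (0.14), the Elane body at one depth (1.503) and the Prtn3 body with fragments shorter than a nucleosome (-0.038). The alternatives largely reuse the same fragments, and intervals are wide where fragments are few, so most ratios could hardly leave them. A ratio could also stay inside its interval and lose its call, as those of the Mpo and S100a9 promoters did at one depth. The number of granule gene promoters past 1.5-fold was 1 in place of 3 at 5 kb on either side and also 1 at one depth. The 83 bins past 1.5-fold became 236 with at least 10 fragments (104 higher, 132 lower), 30 with at least 50, 26 at 2-fold and 44 with short fragments (12 higher, 32 lower). The 18 peaks became 9 with at least 50 fragments and 9 at 2-fold. The cause of these shifts was not tested, apart from the minimum and the fold, which by construction set how many features can pass. Depth limits Ctsg, S100a8, S100a9 and Camp most, with at most 54 promoter fragments over both libraries, and the promoter ratio of S100a9 ran from -1.67 to -0.03 over the alternatives.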
